A study of Mus musculus with 30 samples.

Results

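The whole LK compartment of mouse bone marrow, the Lin-; c-Kit+ cells that hold the stem cells and the committed blood progenitors, was compared between Mettl3KO and WT mice by summing every UMI (a counted molecule) of a 10x library into 1 profile per mouse. The compartment comprised 24396 of the 24693 cells in the table, left after cells with over 10% mitochondrial UMIs were set aside. These cells came from 6 of the study's 30 samples; the other 24 were bulk libraries of sorted populations. Mettl3KO mice carried Mx1-Cre and 2 floxed Mettl3 alleles (Mx1-Cre; Mettl3 fl/fl), and WT mice carried the same floxed alleles without Cre (Mettl3 fl/fl). Both genotypes had received pIpC, the double-stranded RNA mimic that switches on the Mx1 promoter through interferon, and were studied 3 weeks later, with 3 mice and 3 libraries per genotype. The ages of the mice are not given. Mx1-Cre acts in interferon-responsive cells, which include cells outside the blood system, so the deletion was not limited to LK cells. Cre itself was present in 1 genotype only, and an effect of Cre cannot be told apart from that of the deletion.

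Messenger RNA is marked with N6-methyladenosine (m6A) in the nucleus by a complex whose enzyme is METTL3 and whose RNA-binding partner is METTL14. Readers such as the YTH proteins bind the mark and affect the decay, splicing and translation of the transcript, and FTO and ALKBH5 can remove it. In adult bone marrow METTL3 is known to be needed by haematopoietic stem cells for normal differentiation. Genes of the JAK-STAT and interferon pathways are described below in detail. In these pathways, cytokine receptors activate STAT factors, which bind a palindromic element with the letters TTC and GAA at its ends, and type I interferon acts largely through the interferon-stimulated response element, a repeat of GAAA. SOCS proteins and CISH are made in response to this signal and shut it down.

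Promoter windows of 8 genes of these pathways or of the strongest rises are shown because each holds a match to at least 1 of 2 motifs; they were picked for that match and say nothing of how often it occurs. They were read from RefSeq (GRCm38.p6) in the direction of transcription, and capitals mark each match to TTCNNNGAA or GAAANNGAAA on either strand.
Socs1: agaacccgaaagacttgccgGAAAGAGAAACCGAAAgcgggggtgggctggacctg
Socs3: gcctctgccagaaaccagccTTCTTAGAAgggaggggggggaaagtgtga
Irf1: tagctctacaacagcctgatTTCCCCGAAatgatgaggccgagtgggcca
Igtp: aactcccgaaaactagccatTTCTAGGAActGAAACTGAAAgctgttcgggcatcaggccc
Irgm1: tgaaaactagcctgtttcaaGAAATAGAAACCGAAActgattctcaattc
Gbp2: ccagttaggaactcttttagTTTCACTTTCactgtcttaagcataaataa
Serpina3g: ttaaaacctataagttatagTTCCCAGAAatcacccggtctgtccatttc
Serpina3f: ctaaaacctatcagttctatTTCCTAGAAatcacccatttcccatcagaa
The windows lie at chr16:10785584-10785639 (minus strand) for Socs1, chr11:117969491-117969540 (minus) for Socs3, chr11:53769904-53769953 (plus) for Irf1, chr11:58199491-58199551 (plus) for Igtp, chr11:48871421-48871470 (minus) for Irgm1 and chr3:142620584-142620633 (plus) for Gbp2. For Serpina3g and Serpina3f they lie at chr12:104236094-104236143 and chr12:104214403-104214452, both on the plus strand. Socs1 and Irgm1 each hold 2 overlapping GAAANNGAAA matches, Igtp holds both motifs, and Serpina3g and Serpina3f each carry 1 TTCNNNGAA match. The first base of the Serpina3g match lay 33 bases before the start of the gene, and that of Serpina3f 121 bases before it. Among 27025 promoters of 250 bases, TTCNNNGAA occurred in 1940 (7.18%) and GAAANNGAAA in 821 (3.04%). A match is a description of these letters and not evidence of binding. Neither motif was found in the same 250 bases of Cish, Pim1, Pim2, Bcl2l1, Gimap1 or Selp. An entry was present for 9711 of the 13071 genes tested, too few for a share over the called genes to be given, and that check is void.

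Depth was similar in size between genotypes. Mettl3KO libraries kept 4239, 2946 and 4866 cells with 28546967 to 42850603 UMIs, and WT libraries kept 4483, 3514 and 4348 cells with 30671069 to 44159208 UMIs. The median cell held 7503, 7877.5 and 7623 UMIs in Mettl3KO libraries, against 9008, 10490 and 5945 in WT libraries (exact two-sided permutation p = 0.7, n = 3 each). Of 24100 distinct barcodes, 295 occurred in more than 1 library, with 7 to 30 shared by each of the 15 pairs. Every library had Xist at 908 CPM or more and Y-linked genes at or near 0, so all 6 read as female. The libraries are ordered replicate 1, 2 and 3 wherever 3 values are given, and CPM is the counts-per-million scale for UMIs after TMM scaling, which corrects for library composition; within sets of cells CPM is given without that scaling. A value after ± is the standard error of a log2 fold change, and each adjusted p is Benjamini-Hochberg adjusted over all 13071 genes tested. Cells with few UMIs and cells of many types are summed here, so fewer cells of a type and less RNA per cell cannot be told apart in these sums.

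WT replicate 3 stood apart. S100a8, a calcium-binding protein of neutrophils, was at 3289.5, 3299 and 1403 CPM in Mettl3KO libraries, against 4038, 2894 and 41637 CPM in WT libraries. Cells with at least 10 mature neutrophil marker UMIs per 10000 made up 9.41, 5.295 and 7.67% of Mettl3KO cells, against 15.4, 16.6 and 85.6% of WT cells. In WT replicate 3 even cells rich in B cell markers held 3419.6 CPM of S100a8, against 129 and 108 in the other WT libraries. Some results that change without WT replicate 3 are given both ways, but not all such results are listed.

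**Figure D1:**
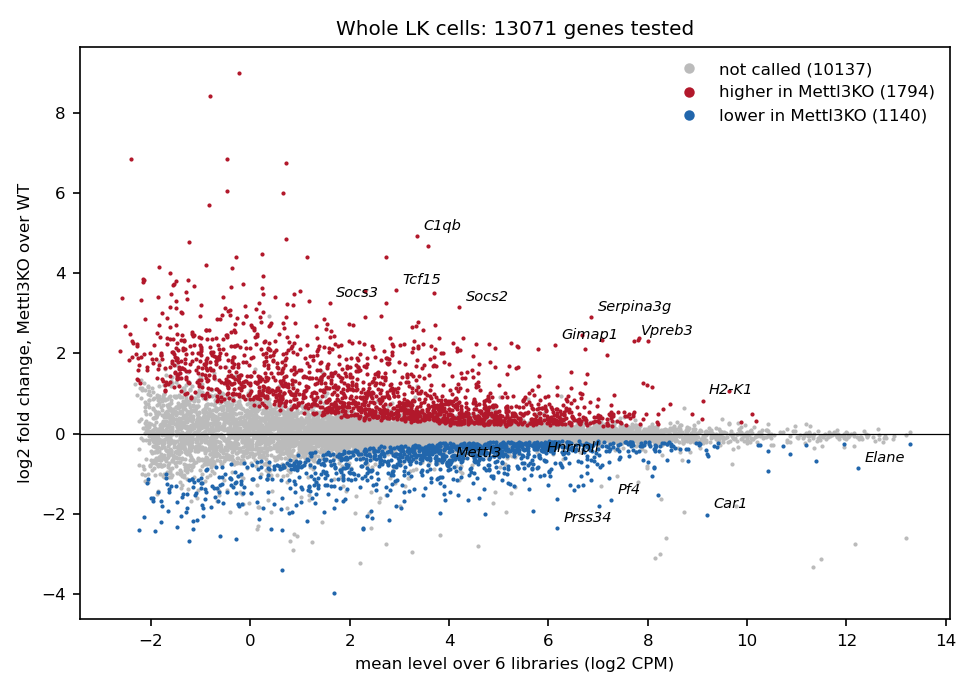
Log2 fold change (Mettl3KO over WT) against the mean level over the 6 LK libraries (log2 CPM), 1 point per gene tested. Of 13071 genes, 1794 were called higher in Mettl3KO (red) and 1140 lower (blue) at an adjusted p under 0.05.

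Loss of Mettl3 was accompanied by broad change across the compartment. Of 13071 genes tested with edgeR's quasi-likelihood test, 2934 (22.4%) were called at an adjusted p under 0.05, 1794 of them (13.7% of those tested) higher and 1140 (8.72%) lower in Mettl3KO libraries. These 3 percentages are the background against which the gene groups below are read. Higher genes changed more: 796 were at least 2-fold higher against 244 at least 2-fold lower, and 265 against 27 passed 4-fold. The median log2 fold change was 0.89 among the higher genes and -0.54 among the lower genes. The higher genes were also the scarcer, with a median of 5.94 CPM against 15.9 CPM for the lower genes. They took 5.25%, 5.34% and 5.05% of all UMIs in Mettl3KO libraries, against 3.27%, 3.11% and 3.02% in WT libraries. The lower genes took 7.17%, 6.92% and 7.20% in Mettl3KO libraries, against 9.03%, 9.36% and 8.97% in WT libraries. The median log2 fold change of all genes tested was -0.0037. At an unadjusted p under 0.05, 4683 genes passed. The 2 genotypes did not overlap in 2930 of the 2934 called genes and in 5428 (41.5%) of all genes tested. Groups without overlap, where mentioned below, therefore describe the values and add little to a call. Without Mettl3KO replicate 1, Mettl3KO replicate 3 or WT replicate 2, the count was 1924, 1887 and 1904 genes, and without WT replicate 3 it was 2614, of which 2318 were among the 2934.

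**Figure D2:**
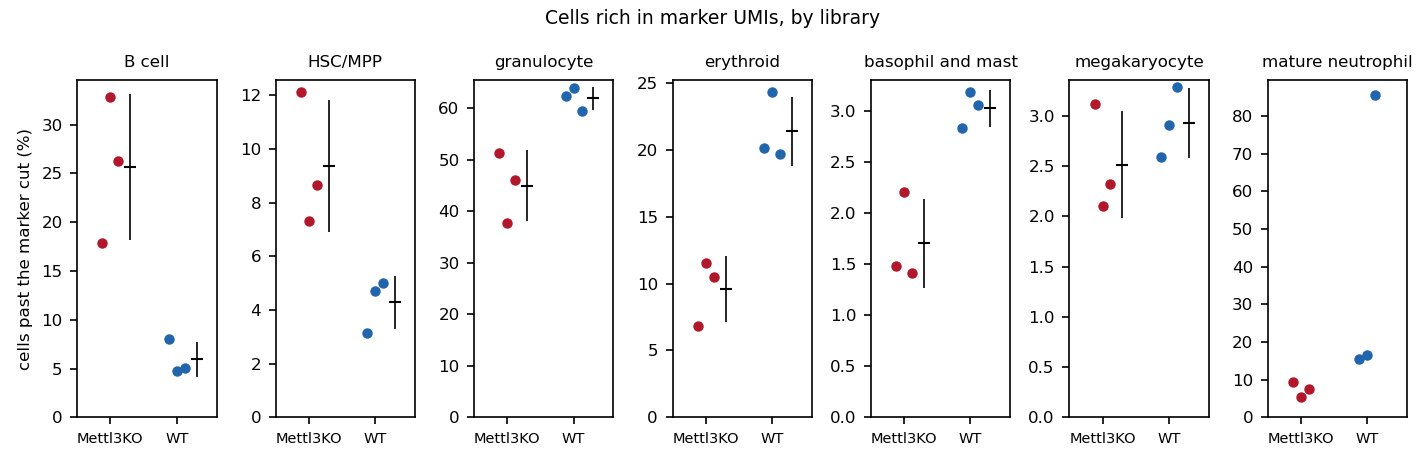
Share of cells (%) with at least 10 marker UMIs per 10000 UMIs, by library, for 7 marker lists; Mettl3KO is on the left and WT on the right of each panel, points are libraries and bars the mean and SD (none for mature neutrophil markers, where WT replicate 3 stood apart). B cell and HSC/MPP marker cells were more frequent and granulocyte, erythroid and basophil marker cells less frequent in every Mettl3KO library than in any WT library.

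The make-up of the gate moved with genotype. Cells past the B cell marker cut made up 17.9, 32.8 and 26.3% of Mettl3KO libraries, against 8.01, 4.78 and 5.11% of WT libraries. Cells past the HSC/MPP cut made up 12.1, 7.33 and 8.65% in Mettl3KO libraries, against 3.15, 4.72 and 4.99% in WT libraries. Cells past the erythroid cut made up 6.82, 11.5 and 10.5% in Mettl3KO libraries, against 20.1, 24.3 and 19.7% in WT libraries. Each of these differences had groups that did not overlap, the most that 3 against 3 mice can show (exact two-sided permutation p = 0.1, the smallest possible). Granulocyte marker cells made up 51.3, 37.7 and 46.03% in Mettl3KO libraries, against 62.3, 63.9 and 59.5% in WT libraries. Basophil and mast marker cells made up 1.49, 2.21 and 1.42% in Mettl3KO libraries, against 2.83, 3.19 and 3.06% in WT libraries. Lymphoid marker cells made up 10.97, 23.9 and 14.9% in Mettl3KO libraries, against 6.31, 4.13 and 4.05% in WT libraries. Monocyte and dendritic marker cells made up 8.799, 10.9 and 10.8% in Mettl3KO libraries, against 15.4, 13.4 and 11.3% in WT libraries. Neither overlapped between genotypes. All of these are shares of the cells of a library, so a larger B cell marker share can by itself lower the other shares. Shares over only the cells outside the B cell cut were not computed. Megakaryocyte marker cells made up 3.11, 2.105 and 2.32% in Mettl3KO libraries, against 2.59, 2.903 and 3.29% in WT libraries, and overlapped. A cut of this kind marks a range of marker content and not a cell type. Cells within 8 to 12 marker UMIs per 10000 made up 0.247% to 0.611% of each library for B cell markers, 1.15% to 1.79% for erythroid markers and 5.78% to 11.1% for granulocyte markers. For HSC/MPP markers they made up 9.41%, 5.53% and 5.98% of Mettl3KO libraries, against 1.99%, 2.53% and 2.78% of WT libraries. These shares are large beside those past that cut. They include cells from 8 to 10, which did not pass it, so they are not a part of the cells past it. The T and NK marker cut is not read here, since Nkg7 was also abundant in granulocyte marker cells, while the T cell gene Cd3e stayed between 0.067 and 0.602 CPM in Mettl3KO libraries and at most 0.344 CPM in WT libraries.

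Mettl3 itself fell. It was at 10.6, 12.5 and 13.1 CPM in Mettl3KO libraries, against 19.7, 22.3 and 18.9 CPM in WT libraries (log2 fold change -0.75 ± 0.10, adjusted p = 0.00239), and the groups did not overlap. The floxed exons are not stated and the UMI table does not say where in a transcript a molecule was read, so transcripts that remain after recombination would still be counted and the level does not measure the deletion. Of the 11 members of the writer complex tested, Mettl3 was the 1 called lower and Mettl16 and Cbll1 were called higher. Mettl16, a separate methyltransferase that acts on U6 RNA and Mat2a, was at 40.8, 41.7 and 39.04 CPM in Mettl3KO libraries, against 33.2, 31.3 and 33.2 CPM in WT libraries (log2 fold change 0.32 ± 0.06, adjusted p = 0.0107). Mettl14, the partner subunit, was at 10.2, 10.9 and 11.2 CPM in Mettl3KO libraries, against 12.3, 10.8 and 10.4 CPM in WT libraries, a difference within the spread (log2 fold change -0.05 ± 0.09, adjusted p = 0.727). Of 12 readers and erasers, 2 were called higher and none lower, a share of 16.7% against 22.4% of all genes tested. Ythdf2, the reader that recruits the CCR4-NOT deadenylase, was at 114, 94.03 and 99.5 CPM in Mettl3KO libraries, against 66.5, 66.4 and 69.2 CPM in WT libraries (log2 fold change 0.61 ± 0.08, adjusted p = 0.00195). The nuclear reader Ythdc1 was at 130.1, 108 and 119 CPM in Mettl3KO libraries, against 91.3, 82.4 and 94.9 CPM in WT libraries (log2 fold change 0.41 ± 0.09, adjusted p = 0.0111). Neither the demethylase Fto (log2 fold change -0.17 ± 0.07, adjusted p = 0.1) nor Alkbh5 (log2 fold change -0.16 ± 0.09, adjusted p = 0.227) passed the test.

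**Figure D3:**
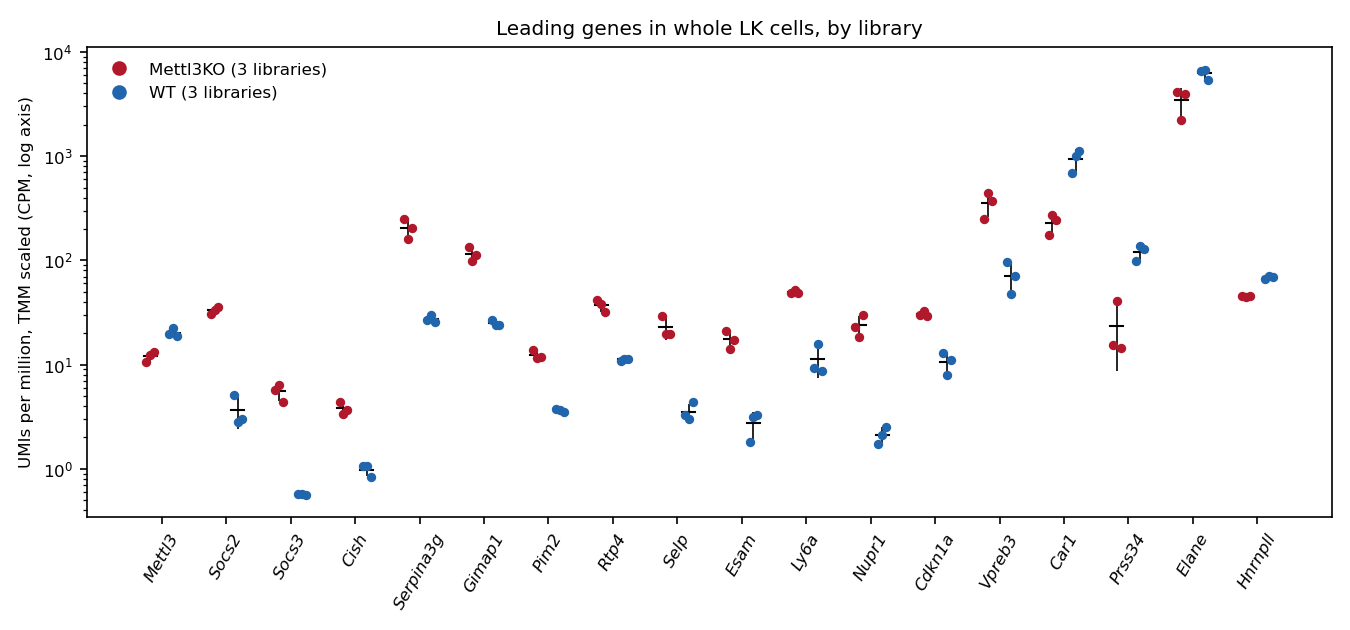
Level (CPM, log axis) of 18 genes in each LK library, Mettl3KO left and WT right; bars are the mean and SD of 3 libraries. Socs2, Socs3, Serpina3g, Selp and Nupr1 rose by more than 2.5 on the log2 scale with no overlap, while Mettl3 fell by 0.75 and Hnrnpll fell by 0.61 on that scale.

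Feedback inhibitors of cytokine signalling were among the strongest rises. Socs2, which restrains growth hormone and STAT5 signalling, was at 30.7, 33.3 and 36.03 CPM in Mettl3KO libraries, against 5.13, 2.84 and 3.04 CPM in WT libraries (log2 fold change 3.17 ± 0.21, adjusted p = 0.000336). Socs3, an inhibitor of gp130 and G-CSF receptor signalling, was at 5.71, 6.43 and 4.43 CPM in Mettl3KO libraries, against 0.573, 0.578 and 0.559 CPM in WT libraries (log2 fold change 3.26 ± 0.19, adjusted p = 0.000219). In both genes the lowest Mettl3KO library was above the highest WT library. Cish, another inhibitor induced by STAT5, was at 4.39, 3.35 and 3.66 CPM in Mettl3KO libraries, against 1.05, 1.06 and 0.838 CPM in WT libraries (log2 fold change 1.94 ± 0.18, adjusted p = 0.000603). Socs1, which inhibits JAK kinases downstream of interferon, was at 4.19, 3.15 and 4.59 CPM in Mettl3KO libraries, against 1.63, 1.78 and 1.57 CPM in WT libraries (log2 fold change 1.26 ± 0.17, adjusted p = 0.00238). Of the 13 genes of this list tested, these 4 were called higher and none lower, in the full fit and without any 1 library, and the list's median was 0.14. The rest, among them Socs4 to Socs7, Pias1, Ptpn6 and Sh2b3, did not pass. Of the windows above, Socs1 carries GAAANNGAAA and Socs3 TTCNNNGAA.

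The share of cells with a Socs2 UMI also differed, and the part of B cell marker cells in it was not tested. Cells past only the B cell cut held 589, 727 and 1132 Socs2 UMIs in Mettl3KO libraries, against 148, 58 and 48 in WT libraries. With B cell marker cells left out of the sums, the log2 fold change of Socs2 was 3.38. After each cell was thinned to 3000 UMIs, 10.4, 11.8 and 11.8% of cells held a Socs2 UMI in Mettl3KO libraries, against 1.99, 1.39 and 0.993% in WT libraries; without thinning the shares were 18.6, 20.03 and 18.97% in Mettl3KO libraries and 3.52, 2.31 and 1.56% in WT libraries. Free RNA in droplets adds a background to such shares: Vpreb3, a pre-B gene, had a UMI in 3.87%, 7.12% and 4.67% of thinned granulocyte marker cells of Mettl3KO libraries, against 1.46%, 1.63% and 1.47% in WT libraries.

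Some genes known to be induced by cytokine signals through STAT factors also rose, and others did not pass; they form no list that was tested. The survival kinase Pim2 was at 13.7, 11.6 and 11.9 CPM in Mettl3KO libraries, against 3.71, 3.64 and 3.49 CPM in WT libraries (log2 fold change 1.78 ± 0.11, adjusted p = 0.000219). Pim1, chosen after its values were seen, was at 162, 149 and 139 CPM in Mettl3KO libraries, against 68.2, 58.7 and 59.9 CPM in WT libraries (log2 fold change 1.27 ± 0.08, adjusted p = 0.000342), while Pim3 (log2 fold change 0.17 ± 0.13, adjusted p = 0.386), Osm (log2 fold change 0.16 ± 0.21, adjusted p = 0.63), Bcl6 (log2 fold change -0.31 ± 0.26, adjusted p = 0.426), Id1 (log2 fold change 0.44 ± 0.19, adjusted p = 0.142) and Lrg1 (log2 fold change -1.45 ± 0.84, adjusted p = 0.258) did not pass. Without WT replicate 3, Id1 was called higher, with a log2 fold change of 0.65, and Lrg1 turned to 0.46 and still did not pass. Lrg1 was at 110 CPM in WT replicate 3, against 13.2 and 10.05 CPM in WT replicates 1 and 2. Bcl2l1, which encodes the anti-apoptotic BCL-XL, was at 19.2, 15.2 and 17.5 CPM in Mettl3KO libraries, against 7.402, 7.21 and 7.72 CPM in WT libraries (log2 fold change 1.22 ± 0.10, adjusted p = 0.000513). Pim1, Pim2 and Bcl2l1 each had groups without overlap. Among 27 cytokine receptors, 8 were called higher and 5 lower, with a median of 0.10. The common gamma chain Il2rg was at 23.6, 20.8 and 21.5 CPM in Mettl3KO libraries, against 10.2, 9.75 and 11.004 CPM in WT libraries (log2 fold change 1.09 ± 0.08, adjusted p = 0.000381). Csf2rb2, the mouse IL-3-specific beta chain, was at 2.84, 3.05 and 2.27 CPM in Mettl3KO libraries, against 0.573, 0.628 and 0.734 CPM in WT libraries (log2 fold change 2.08 ± 0.20, adjusted p = 0.000818). It is a near copy of Csf2rb (log2 fold change 0.62 ± 0.09, adjusted p = 0.00267), so its reads may be split. Kit, whose protein was used to sort the cells, fell (log2 fold change -0.48 ± 0.11, adjusted p = 0.0162; not called without Mettl3KO replicate 3), as did the erythropoietin receptor Epor (log2 fold change -0.83 ± 0.15, adjusted p = 0.00701; 0.43 without B cell and erythroid marker cells) and the interferon gamma receptor chain Ifngr1 (log2 fold change -0.43 ± 0.07, adjusted p = 0.00433). Without Mettl3KO replicate 3, 3 receptors were called lower. Kit protein defines the gate, so its RNA was read only among cells that passed it.

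Many interferon-stimulated genes rose. Of 50 tested, 26 were called higher, 1 lower and 23 did not pass, and the median was 0.55 against -0.0037 for all genes tested. Rtp4, a chaperone of receptors induced by interferon, was at 41.6, 37.8 and 31.9 CPM in Mettl3KO libraries, against 10.9, 11.4 and 11.3 CPM in WT libraries (log2 fold change 1.73 ± 0.10, adjusted p = 0.000219). Igtp (Irgm3), an immunity-related GTPase, was at 26.6, 23.5 and 33.5 CPM in Mettl3KO libraries, against 6.83, 11.8 and 10.8 CPM in WT libraries (log2 fold change 1.51 ± 0.21, adjusted p = 0.00238). Both were higher in every Mettl3KO library. The guanylate-binding protein Gbp2 was at 11.9, 14.3 and 15.3 CPM in Mettl3KO libraries, against 4.3998, 4.798 and 5.69 CPM in WT libraries (log2 fold change 1.49 ± 0.14, adjusted p = 0.000603). The transcription factor Irf1 was at 19.3, 18.1 and 20.1 CPM in Mettl3KO libraries, against 9.28, 11.002 and 9.68 CPM in WT libraries (log2 fold change 0.94 ± 0.09, adjusted p = 0.000742). Of the families counted after values were seen, 6 of 7 immunity-related GTPases and 5 of 8 guanylate-binding proteins tested were called higher and none lower. Without WT replicate 3 the remaining immunity-related GTPase, Tgtp2, was called higher as well, with a log2 fold change of 1.68. The immunity-related GTPase Iigp1 had log2 fold change 2.58 ± 0.31, adjusted p = 0.00155 and Irgm1 log2 fold change 1.2 ± 0.23, adjusted p = 0.00821. These families hold close paralogs, so reads shared between members may be assigned unevenly.

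Not every classical interferon gene passed the test. Isg15, a ubiquitin-like modifier, was at 37.2, 33.6 and 31.1 CPM in Mettl3KO libraries, against 11.9, 13.9 and 16.4 CPM in WT libraries (log2 fold change 1.28 ± 0.12, adjusted p = 0.000814), and Ifit1, which binds uncapped RNA, had log2 fold change 1.5 ± 0.32, adjusted p = 0.012. Mx1 (log2 fold change 0.08 ± 0.34, adjusted p = 0.89), Rsad2 (log2 fold change 0.07 ± 0.15, adjusted p = 0.782), Ifit2 (log2 fold change 0.21 ± 0.16, adjusted p = 0.386) and Irf7 (log2 fold change 0.45 ± 0.21, adjusted p = 0.164) did not pass. Mx1 was at 0.355, 0.704 and 0.463 CPM in Mettl3KO libraries and 0.344, 0.528 and 0.559 CPM in WT libraries, near the limit of counting. Cmpk2, a mitochondrial nucleotide kinase induced by interferon, fell (log2 fold change -0.52 ± 0.12, adjusted p = 0.0169; not called without Mettl3KO replicate 1). Among sensors of double-stranded RNA and editing enzymes, 2 of 15 were called higher and none lower: Tlr3 (log2 fold change 1.59 ± 0.29, adjusted p = 0.00707) and Tmem173, which encodes the DNA pathway adaptor STING (log2 fold change 0.45 ± 0.11, adjusted p = 0.0208; not called without Mettl3KO replicate 2). The cytosolic RNA sensors Ddx58 (log2 fold change 0.41 ± 0.16, adjusted p = 0.109) and Ifih1 (log2 fold change -0.33 ± 0.13, adjusted p = 0.12) did not pass. The share called in this sensor and editing list was 13.3%, below the 22.4% of all genes tested. The interferon list held 23 to 27 called higher genes without any 1 library, and 23 with B cell marker cells left out.

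Antigen presentation by MHC class I moved the same way. Of 18 genes tested, 12 were called higher and none lower, with a median of 0.49, and 9 to 13 were called without any 1 library. The class I heavy chain H2-K1 was at 741, 661 and 708 CPM in Mettl3KO libraries, against 345, 435 and 415 CPM in WT libraries (log2 fold change 0.82 ± 0.10, adjusted p = 0.00162). The peptide transporter Tap1 was at 67.98, 68.5 and 71.7 CPM in Mettl3KO libraries, against 37.2, 43.3 and 44.1 CPM in WT libraries (log2 fold change 0.74 ± 0.08, adjusted p = 0.00105). The immunoproteasome subunit Psmb9, which shares a divergent promoter region with Tap1, was at 207, 213 and 231 CPM in Mettl3KO libraries, against 142, 158 and 152 CPM in WT libraries (log2 fold change 0.53 ± 0.07, adjusted p = 0.0023). All 3 had groups without overlap. H2-T22 (log2 fold change 0.91 ± 0.11, adjusted p = 0.00155) and H2-Q7 (log2 fold change 1.48 ± 0.25, adjusted p = 0.00549) rose too, while B2m (log2 fold change 0.25 ± 0.12, adjusted p = 0.165) and H2-T23 (log2 fold change 0.01 ± 0.18, adjusted p = 0.983) did not pass. Classical and Q-region genes are near-identical, and reads among them may be split by the counting. The class II genes H2-Aa (log2 fold change 1.01 ± 0.16, adjusted p = 0.00403) and H2-Ab1 (log2 fold change 0.97 ± 0.18, adjusted p = 0.0066), which B cells and dendritic cells express, rose too. Without B cell marker cells H2-Aa stood at 1.21 and H2-Ab1 at 1.09 on the log2 scale, so the rises were as large without those cells.

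Members of 2 gene clusters rose. Serpina3g, an intracellular inhibitor of cathepsins that is known to be induced by interferon and STAT signals, was at 250.1, 161 and 206 CPM in Mettl3KO libraries, against 26.7, 30.1 and 25.9 CPM in WT libraries (log2 fold change 2.9 ± 0.16, adjusted p = 0.000219). Its neighbour Serpina3f was at 11.9, 9.15 and 15.01 CPM in Mettl3KO libraries, against 1.03, 1.61 and 1.12 CPM in WT libraries (log2 fold change 3.26 ± 0.24, adjusted p = 0.000342). The 2 genes lie within 27396 bases of chromosome 12, and of 10 Serpina3 genes in the table only these 2 were high enough to test. A Serpina3g UMI was found in 37.8, 26.1 and 30.1% of thinned Mettl3KO cells, against 7.08, 9.45 and 6.67% of thinned WT cells. The Gimap cluster, GTPases of lymphocyte survival, lies within 123618 bases of chromosome 6 (GRCm38, positions 48647234 to 48770851), and all 8 of its members tested were called higher, by 1.34 (Gimap7) to 2.79 (Gimap4) on the log2 scale. Without B cell marker cells Gimap7 stood at 0.81 and did not pass (adjusted p = 0.0848 in edgeR), and Gimap4 stood at 1.56 and was still called. Gimap1 was at 136, 98.2 and 112 CPM in Mettl3KO libraries, against 26.8, 24.01 and 24.2 CPM in WT libraries (log2 fold change 2.2 ± 0.12, adjusted p = 0.000219). Gimap6 was at 67.1, 65.4 and 57.9 CPM in Mettl3KO libraries, against 19.9, 19.7 and 20.96 CPM in WT libraries (log2 fold change 1.65 ± 0.08, adjusted p = 0.000219). The groups were apart in each of the 8.

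Other genes led by size or by p. Nupr1, a small stress-induced chromatin protein, was at 23.1, 18.4 and 29.8 CPM in Mettl3KO libraries, against 1.74, 2.14 and 2.52 CPM in WT libraries (log2 fold change 3.5 ± 0.21, adjusted p = 0.000219). Tcf15, a basic helix-loop-helix factor linked to stem cell quiescence, was at 18.3, 8.78 and 14.9 CPM in Mettl3KO libraries, against 1.19, 0.955 and 1.43 CPM in WT libraries (log2 fold change 3.57 ± 0.29, adjusted p = 0.000494). F11r, which encodes the junctional adhesion molecule JAM-A, was at 13.7, 9.01 and 10.03 CPM in Mettl3KO libraries, against 1.26, 1.28 and 1.82 CPM in WT libraries (log2 fold change 2.93 ± 0.21, adjusted p = 0.000342). The rule that names genes by size or by p requires groups without overlap, so that separation was set by the choice. Ptprcap, a partner of the phosphatase CD45, was at 346, 374 and 341 CPM in Mettl3KO libraries, against 159, 145 and 158 CPM in WT libraries (log2 fold change 1.2 ± 0.07, adjusted p = 0.000219).

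The complement genes C1qa, C1qb and C1qc rose steeply, on the RNA of few cells. C1qb was at 12.1, 37.8 and 9.89 CPM in Mettl3KO libraries, against 0.871, 0.477 and 0.559 CPM in WT libraries (log2 fold change 4.93 ± 0.62, adjusted p = 0.00174). Only 9, 22 and 7 cells of the Mettl3KO libraries, against 1, 2 and 1 cells of the WT libraries, held 10 or more C1q UMIs. Those cells carried 93.8%, 94.7% and 93.0% of all C1q UMIs in Mettl3KO libraries, against 29.5%, 73.6% and 85.2% in WT libraries. Of 12 macrophage genes tested, 3 were called higher, these 3, and 2 lower: the iron exporter Slc40a1 (log2 fold change -1.1 ± 0.16, adjusted p = 0.00288) and Vcam1 (log2 fold change -0.78 ± 0.17, adjusted p = 0.0145). The macrophage gene Cd5l was at or near 0 in every library. Adgre1, another macrophage marker, was at 0.838, 0.871 and 0.811 CPM in Mettl3KO libraries, against 1.24, 1.005 and 1.40 CPM in WT libraries.

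Stem cell identity genes rose. Of 26 tested, 16 were called higher, 1 lower (Kit) and 9 did not pass, and the median was 0.94. Esam, an adhesion molecule of stem cells, was at 21.2, 14.2 and 17.1 CPM in Mettl3KO libraries, against 1.81, 3.11 and 3.28 CPM in WT libraries (log2 fold change 2.7 ± 0.23, adjusted p = 0.000588). Ly6a, which encodes Sca-1 and is also an interferon-stimulated gene, was at 48.1, 51.9 and 48.2 CPM in Mettl3KO libraries, against 9.33, 15.6 and 8.698 CPM in WT libraries (log2 fold change 2.13 ± 0.20, adjusted p = 0.000716). Procr, the protein C receptor EPCR, was at 7.796, 4.86 and 6.51 CPM in Mettl3KO libraries, against 1.97, 1.33 and 1.89 CPM in WT libraries (log2 fold change 1.89 ± 0.22, adjusted p = 0.00135). In all 3 genes the lowest Mettl3KO library was above the highest WT library. Mycn, the MYC paralog of stem cells, was at 47.6, 20.3 and 29.8 CPM in Mettl3KO libraries, against 6.76, 5.85 and 6.25 CPM in WT libraries (log2 fold change 2.37 ± 0.28, adjusted p = 0.00149), and the regulators Mecom (log2 fold change 1.23 ± 0.24, adjusted p = 0.00918) and Meis1 (log2 fold change 0.95 ± 0.20, adjusted p = 0.0108) rose by less. Not every stem cell regulator rose: Hlf (log2 fold change -0.47 ± 0.18, adjusted p = 0.0947), Mllt3 (log2 fold change -0.06 ± 0.10, adjusted p = 0.705) and Tal1 (log2 fold change 0.00 ± 0.10, adjusted p = 0.995) did not pass. A family of 42 Hox genes and antisense transcripts was counted after values were seen, and 16 of them were high enough to test. Of these 16, 11 were called higher and none lower. The other members were too low to test, so this count does not describe the whole family. The highest log2 fold change among the 16 was 9.0. A gene nearly absent in WT libraries can pass the filter on low counts through the Mettl3KO libraries alone. The count is therefore a description and lends no support to a rise of the family. The list held 14 to 18 called higher genes without any 1 library and 19 without B cell and erythroid marker cells. HSC/MPP marker cells, whose 8 markers are all in this list, were more frequent in every Mettl3KO library, and their part in the result was not tested.

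Among adhesion molecules, Selp (P-selectin), which platelets and endothelium use to capture leukocytes, was at 29.3, 19.7 and 19.6 CPM in Mettl3KO libraries, against 3.25, 3.04 and 4.33 CPM in WT libraries (log2 fold change 2.7 ± 0.20, adjusted p = 0.000347). It was detected in 10.7, 6.34 and 6.85% of thinned Mettl3KO cells, against 1.36, 1.37 and 1.53% of thinned WT cells. The list of stem cell and adhesion surface genes had 9 of 24 called higher and 4 lower, with a median of 0.08. Pecam1 rose (log2 fold change 0.79 ± 0.11, adjusted p = 0.00217), whereas Cd44, a hyaluronan receptor (log2 fold change -0.36 ± 0.07, adjusted p = 0.00732), and the sialomucin Emcn (log2 fold change -0.88 ± 0.21, adjusted p = 0.0221; not called without Mettl3KO replicate 1 or 3 or WT replicate 2) fell. Without Mettl3KO replicate 3, 2 of its genes were called lower.

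B lineage genes rose together with the B cell marker cells. Of 14 tested, 13 were called higher and none lower, the median was 2.31, and the same number was called without any 1 library. Vpreb3, part of the pre-B cell machinery, was at 249, 439 and 375 CPM in Mettl3KO libraries, against 96.5, 47.6 and 70.3 CPM in WT libraries (log2 fold change 2.31 ± 0.28, adjusted p = 0.00161). The mature B cell gene Ms4a1 (CD20) stayed between 0.440 and 0.813 CPM in Mettl3KO libraries and did not pass (log2 fold change 0.58 ± 0.58, adjusted p = 0.518). Within cells past the B cell cut alone, Vpreb3 stood at 2079, 2233 and 2069.8 CPM in Mettl3KO libraries, against 1985, 1937 and 2177 in WT libraries. It overlapped between genotypes, in cells chosen partly by this gene. With B cell marker cells left out of the sums, 11 of the list were still called higher, with a median of 1.51. Those cells were left out by markers that include Vpreb3 itself. Vpreb3 also had a UMI in 3.87%, 7.12% and 4.67% of thinned granulocyte marker cells of Mettl3KO libraries, against 1.46%, 1.63% and 1.47% in WT libraries. The part of free RNA in these calls was not tested.

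Lymphoid priming genes followed only in part. Of 16 tested, 5 were called higher, 1 lower, and the median was 0.10. Lymphoid marker cells, whose 5 markers are Flt3, Dntt, Il7r, Satb1 and Notch1, were more frequent in every Mettl3KO library, and their part in these calls was not tested. Dntt, which adds nucleotides to recombining receptor genes, was at 156, 328 and 209 CPM in Mettl3KO libraries, against 76.4, 47.3 and 55.02 CPM in WT libraries (log2 fold change 1.96 ± 0.28, adjusted p = 0.00261). Rag2, a subunit of the recombinase, was at 11.7, 22.6 and 15.2 CPM in Mettl3KO libraries, against 4.31, 2.51 and 3.04 CPM in WT libraries (log2 fold change 2.31 ± 0.28, adjusted p = 0.00155). The early lymphoid genes Flt3 (log2 fold change -0.17 ± 0.19, adjusted p = 0.573), Satb1 (log2 fold change -0.11 ± 0.09, adjusted p = 0.444) and Notch1 (log2 fold change -0.10 ± 0.12, adjusted p = 0.605) did not pass, and Ikzf1 fell (log2 fold change -0.27 ± 0.07, adjusted p = 0.0277; not called without Mettl3KO replicate 1 or 3 or WT replicate 1 or 3). Without B cell marker cells none of the list was called higher and 1 was called lower.

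Erythroid genes fell. Of 22 tested, 16 were called lower and 3 higher, with a median of -1.06. Car1, carbonic anhydrase of early erythroid progenitors, was at 174, 272 and 245 CPM in Mettl3KO libraries, against 682, 1012 and 1114 CPM in WT libraries (log2 fold change -2.02 ± 0.22, adjusted p = 0.0011). Its highest Mettl3KO library was well below the lowest WT library. The master regulators Gata1 (log2 fold change -1.03 ± 0.16, adjusted p = 0.00363) and Klf1 (log2 fold change -0.99 ± 0.16, adjusted p = 0.00407) fell. The 3 members called higher were Nfe2 (log2 fold change 0.86 ± 0.13, adjusted p = 0.00341), a megakaryocytic and erythroid factor, Zfpm1 (log2 fold change 0.66 ± 0.15, adjusted p = 0.0158; not called without Mettl3KO replicate 3 or WT replicate 1), the GATA1 cofactor FOG1, and Cnrip1 (log2 fold change 0.66 ± 0.13, adjusted p = 0.00965; -0.15 without B cell and erythroid marker cells). Of 16 heme and iron genes, 10 were called lower and none higher, with a median of -0.55. Ferrochelatase, Fech, which inserts iron into heme, was at 32.1, 32.4 and 38.04 CPM in Mettl3KO libraries, against 51.6, 61.9 and 56.7 CPM in WT libraries (log2 fold change -0.73 ± 0.10, adjusted p = 0.00202). Among the others called lower were the enzymes Alas2, Alad, Uros, Urod, Cpox and Ppox and the transporters Slc25a37 and Slc11a2. The transferrin receptor Tfrc, which all dividing cells use, did not pass (log2 fold change 0.25 ± 0.15, adjusted p = 0.27).

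Erythroid calls moved with the frequency of erythroid marker cells. Without B cell and erythroid marker cells, 6 erythroid genes were called higher and 4 lower, with a median of -0.02, and 2 heme genes each way. Within cells past the erythroid cut alone, Car1 still stood at 1428, 1437 and 1346 CPM in Mettl3KO libraries, against 2230.4, 2663 and 3366 in WT libraries. A Car1 UMI was found in 76.3%, 77.6% and 72.9% of those cells in Mettl3KO libraries, against 94.1%, 94.8% and 97.2% in WT libraries, after thinning. Car1 is itself 1 of the 7 markers behind the cut, so these values describe cells chosen partly by it.

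Some granule genes of neutrophil progenitors fell. Of 18 tested, 6 were called lower, none higher and 12 did not pass, with a median of -1.08. Elane, neutrophil elastase, was at 4086, 2225 and 3984 CPM in Mettl3KO libraries, against 6512, 6759 and 5372 CPM in WT libraries (log2 fold change -0.86 ± 0.22, adjusted p = 0.026; not called without WT replicate 1 or 2). Mpo, myeloperoxidase, was at 2393, 1652 and 2121 CPM in Mettl3KO libraries, against 3175, 3593 and 3144 CPM in WT libraries (log2 fold change -0.68 ± 0.14, adjusted p = 0.00955). Ctsg, cathepsin G, was at 1627, 1440.1 and 1539 CPM in Mettl3KO libraries, against 2179.6, 2384 and 1959 CPM in WT libraries (log2 fold change -0.50 ± 0.09, adjusted p = 0.00769). The groups did not overlap in any of the 3. Without WT replicate 3, 9 were called lower and the median was -0.43, and late granule genes such as Camp were highest in that library, at 632, 573 and 173 CPM in Mettl3KO libraries, against 915, 296 and 12785 CPM in WT libraries (log2 fold change -3.34 ± 1.25, adjusted p = 0.0929). Without Mettl3KO replicate 1, 2 or 3, 3 were called lower in each case. Granulocyte marker cells made up a smaller share of every Mettl3KO library, and their part in these falls was not tested. Among thinned granulocyte marker cells, 68.1, 60.3 and 74.4% held an Elane UMI in Mettl3KO libraries, against 85.5, 86.5 and 73.5% in WT libraries. These shares overlapped, in cells chosen partly by Elane. The mature neutrophil list had a median of -1.09 over 14 genes with 1 called lower, and 0.11 with none called when WT replicate 3 was left out. Immediate early genes showed the same dependence: 1 of 20 was called higher and 1 lower (median -0.30), but 8 higher and none lower without WT replicate 3 (median 0.47).

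Basophil and mast cell genes fell too. Of 12 tested, 8 were called lower and 1 higher, with a median of -0.92. The basophil protease Prss34 was at 15.6, 40.9 and 14.6 CPM in Mettl3KO libraries, against 99.5, 136 and 128 CPM in WT libraries (log2 fold change -2.37 ± 0.37, adjusted p = 0.00389). Hdc, which makes histamine, was at 28.5, 18.8 and 24.4 CPM in Mettl3KO libraries, against 44.4, 45.6 and 54.1 CPM in WT libraries (log2 fold change -1.0 ± 0.15, adjusted p = 0.00304). Csrp3, a LIM protein, was at 6.68, 8.28 and 6.88 CPM in Mettl3KO libraries, against 20.9, 21.9 and 26.1 CPM in WT libraries (log2 fold change -1.66 ± 0.12, adjusted p = 0.000342). Il1rl1, the interleukin-33 receptor of mast cells and basophils and a member of the receptor list, fell as well (log2 fold change -1.27 ± 0.19, adjusted p = 0.00345). Basophil and mast marker cells were less frequent in every Mettl3KO library, and their part in these falls was not tested. Without Mettl3KO replicate 1 or 3, 3 genes of the list were called lower.

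Megakaryocyte genes split. Of 16 tested, 4 were called higher and 2 lower, with a median of 0.18. Pf4, a platelet chemokine, was at 89.2, 64.5 and 68.2 CPM in Mettl3KO libraries, against 159.6, 223 and 321 CPM in WT libraries (log2 fold change -1.66 ± 0.24, adjusted p = 0.00272), and Gp1bb, a subunit of the von Willebrand factor receptor, had log2 fold change -1.87 ± 0.25, adjusted p = 0.00222. Gp5, another subunit of the same receptor complex, went the other way, at 54.1, 36.03 and 41.1 CPM in Mettl3KO libraries, against 10.4, 11.5 and 16.1 CPM in WT libraries (log2 fold change 1.79 ± 0.19, adjusted p = 0.00115). The thrombin receptor F2r (log2 fold change 1.51 ± 0.22, adjusted p = 0.00287) and Fli1 (log2 fold change 0.60 ± 0.14, adjusted p = 0.0196; not called without Mettl3KO replicate 1 or 3 or WT replicate 1 or 2) rose, while Vwf (log2 fold change -0.02 ± 0.20, adjusted p = 0.965) and Itga2b (log2 fold change 0.62 ± 0.23, adjusted p = 0.0884) did not pass. Without WT replicate 1, 4 were called lower. Megakaryocyte marker cells overlapped in frequency between genotypes. Of 17 monocyte and dendritic genes, 5 were called higher and 1 lower, with a median of 0.04, and 3 were called higher without WT replicate 1 or WT replicate 2. Monocyte and dendritic marker cells were less frequent in every Mettl3KO library, and their part was not tested.

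**Figure D4:**
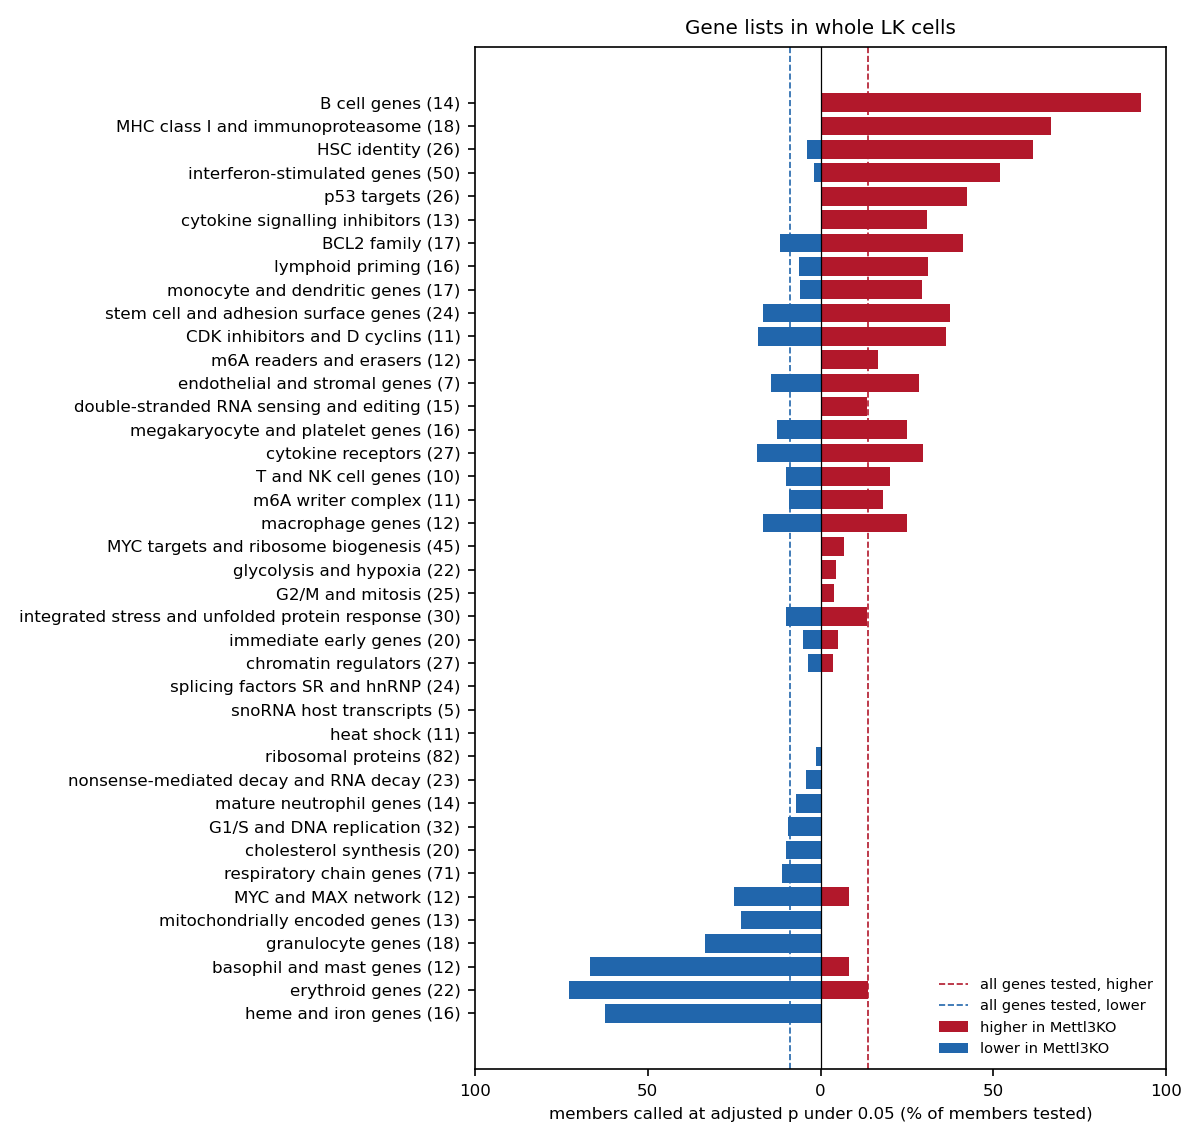
Share of tested members (%) called higher (right, red) or lower (left, blue) in Mettl3KO LK libraries for each gene list with 5 or more members tested, with the number tested in brackets. Dashed lines give the background of all 13071 genes, 13.7% higher and 8.72% lower; B cell, MHC class I, stem cell and interferon genes lie far to the right and erythroid, heme and basophil genes far to the left.

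Some targets of p53 rose. Of 26 tested, 11 were called higher, none lower and 15 did not pass, with a median of 0.24, and 8 to 11 were called without any 1 library. Cdkn1a, the cell cycle inhibitor p21, was at 29.6, 32.6 and 29.2 CPM in Mettl3KO libraries, against 12.8, 7.94 and 11.04 CPM in WT libraries (log2 fold change 1.52 ± 0.16, adjusted p = 0.000988). Phlda3, an inhibitor of AKT, was at 12.7, 10.96 and 12.5 CPM in Mettl3KO libraries, against 4.72, 4.27 and 4.65 CPM in WT libraries (log2 fold change 1.41 ± 0.10, adjusted p = 0.000342). The pro-apoptotic genes Pmaip1 (log2 fold change 1.4 ± 0.25, adjusted p = 0.00588) and Bbc3 (log2 fold change 0.57 ± 0.11, adjusted p = 0.00992) rose too, while Mdm2 (log2 fold change 0.19 ± 0.10, adjusted p = 0.207), Ccng1 (log2 fold change -0.10 ± 0.07, adjusted p = 0.353) and Sesn1 (log2 fold change 0.11 ± 0.08, adjusted p = 0.398) did not pass. The BCL2 family had 7 of 17 called higher and 2 lower, with a median of 0.26. The pro-apoptotic Bcl2l11 (BIM) fell (log2 fold change -0.51 ± 0.12, adjusted p = 0.0177; not called without Mettl3KO replicate 1 or 3; 0.06 without B cell and erythroid marker cells), and Bcl2 itself did not pass (log2 fold change -0.11 ± 0.08, adjusted p = 0.381). Without Mettl3KO replicate 1 or 2, 4 of the family were called higher.

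Cell cycle regulators moved in both directions. Of 11 CDK inhibitors and D cyclins, 4 were called higher and 2 lower, with a median of 0.42. The cyclin Ccnd1 was at 21.9, 21.9 and 23.1 CPM in Mettl3KO libraries, against 13.4, 9.27 and 10.9 CPM in WT libraries (log2 fold change 0.99 ± 0.13, adjusted p = 0.00182). The CDK inhibitor Cdkn1c (p57) was at 5.64, 3.89 and 4.19 CPM in Mettl3KO libraries, against 1.26, 1.93 and 1.68 CPM in WT libraries (log2 fold change 1.5 ± 0.21, adjusted p = 0.0025), whereas Cdkn2c (p18) fell (log2 fold change -0.57 ± 0.14, adjusted p = 0.0224; not called without Mettl3KO replicate 1 or 3 or WT replicate 1). Without WT replicate 3, 7 were called higher, and without Mettl3KO replicate 1 or WT replicate 1, none was called lower. Of 32 genes of G1/S and DNA replication, none was called higher and 3 lower, and of 25 genes of G2/M and mitosis, 1 was called higher and none lower. Without Mettl3KO replicate 1, Mettl3KO replicate 3 or WT replicate 2, 1 gene of G1/S was called lower. Without B cell marker cells, 5 mitotic genes were called lower.

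Core biosynthetic and RNA-processing genes changed little, with shares called below the background. Of 45 MYC targets and ribosome biogenesis genes, 3 were called higher and none lower (median 0.05): the nucleolar protein Ncl (log2 fold change 0.32 ± 0.07, adjusted p = 0.0187; not called without Mettl3KO replicate 2 or 3 or WT replicate 1), the rRNA methyltransferase Nop2 (log2 fold change 0.31 ± 0.07, adjusted p = 0.0181; not called without Mettl3KO replicate 1 or 3 or WT replicate 1) and the repair enzyme Apex1 (log2 fold change 0.40 ± 0.06, adjusted p = 0.00378). The number called higher was 1 without Mettl3KO replicate 3 or WT replicate 1, and 11 when B cell and erythroid marker cells were left out. Of 82 ribosomal protein genes, 1 was called lower and none higher, Rpl22l1 at 2073, 2065 and 2160.0 CPM in Mettl3KO libraries, against 2624, 2585 and 2497 CPM in WT libraries (log2 fold change -0.29 ± 0.07, adjusted p = 0.0212; not called without Mettl3KO replicate 1, 2 or 3 or WT replicate 1 or 2). None of 24 SR and hnRNP splicing factors, 11 heat shock genes or 5 snoRNA host transcripts was called; the abundant examples are Hnrnpk (log2 fold change -0.00 ± 0.09, adjusted p = 0.985), Hspa8 (log2 fold change 0.18 ± 0.12, adjusted p = 0.31) and Snhg6 (log2 fold change 0.20 ± 0.10, adjusted p = 0.195). Of 23 decay factors, 1 was called lower, the deadenylase Cnot7 (log2 fold change -0.23 ± 0.06, adjusted p = 0.0339; not called without any 1 library). Of 27 chromatin regulators, the remodeller Smarca4 (log2 fold change 0.66 ± 0.12, adjusted p = 0.0068; -0.03 without B cell marker cells) was called higher and the dioxygenase Tet2 (log2 fold change -0.36 ± 0.08, adjusted p = 0.0164; not called without Mettl3KO replicate 3 or WT replicate 2) lower.

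Respiratory chain genes differed by small amounts. Of 71 nuclear respiratory chain genes, 8 were called lower and none higher, with a median of -0.14, and the share called lower was near the background. The direction was nonetheless mostly shared: only 4 of the 71 had a log2 fold change above 0. Of the 71, 43 were lower without overlap and none higher, against 41.5% without overlap in either direction among all genes tested. Leaving out 1 library gave 0 to 6 called lower: 0 without Mettl3KO replicate 1, and 1 without Mettl3KO replicate 3 or WT replicate 2. Ndufa1, a complex I subunit, was at 265, 276 and 275 CPM in Mettl3KO libraries, against 326, 323 and 363 CPM in WT libraries (log2 fold change -0.31 ± 0.07, adjusted p = 0.0171; not called without Mettl3KO replicate 1). Of 13 mitochondrially encoded genes, 3 were called lower, among them mt-Nd4 (log2 fold change -0.30 ± 0.07, adjusted p = 0.0218; not called without Mettl3KO replicate 1 or 2 or WT replicate 1 or 2). Of these 13, 1 had a log2 fold change above 0, and 8 were lower and 1 higher without overlap. The median cell had 3.12%, 3.12% and 3.26% mitochondrial UMIs in Mettl3KO libraries, against 3.60%, 3.45% and 3.58% in WT libraries. Of 20 cholesterol synthesis genes, Insig1 and Acat2 were called lower, neither of them without Mettl3KO replicate 1, Mettl3KO replicate 2, WT replicate 2 or WT replicate 3. Of 22 glycolysis and hypoxia genes, the glucose transporter Slc2a1 was called higher (log2 fold change 0.93 ± 0.13, adjusted p = 0.00255). In the stress response list, 4 of 30 were called higher and 3 lower. That share, 23.3%, was near the 22.4% of all genes tested. The pseudokinase Trib3 (log2 fold change 2.26 ± 0.28, adjusted p = 0.00174) and the serine synthesis enzymes Psat1 (log2 fold change 0.41 ± 0.08, adjusted p = 0.00697) and Phgdh (log2 fold change 0.37 ± 0.10, adjusted p = 0.0291) rose. Phgdh was not called without Mettl3KO replicate 1, 2 or 3 or WT replicate 1 or 2. Asparagine synthetase Asns fell (log2 fold change -0.95 ± 0.17, adjusted p = 0.00639). Without any 1 Mettl3KO library, or without WT replicate 1, 2 of that list were called higher, and without Mettl3KO replicate 3, 1 was called lower.

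Some of the most certain falls were in genes outside the lists. Optn, the autophagy receptor optineurin, was at 7.06, 9.62 and 9.04 CPM in Mettl3KO libraries, against 19.7, 20.5 and 23.1 CPM in WT libraries (log2 fold change -1.3 ± 0.12, adjusted p = 0.000737). Hnrnpll, a splicing regulator, was at 46.01, 44.2 and 45.1 CPM in Mettl3KO libraries, against 66.4, 70.8 and 69.6 CPM in WT libraries (log2 fold change -0.61 ± 0.06, adjusted p = 0.000737). Neither gene overlapped between genotypes. The Wnt pathway gene Frat2 was at 47.8, 46.4 and 49.4 CPM in Mettl3KO libraries, against 73.6, 79.1 and 77.2 CPM in WT libraries (log2 fold change -0.68 ± 0.06, adjusted p = 0.000603), and the protease Klk8 had log2 fold change -1.37 ± 0.12, adjusted p = 0.000603. Among the largest falls were the adhesion molecule Ncam1 (log2 fold change -2.17 ± 0.45, adjusted p = 0.011), the pseudokinase Trib2 (log2 fold change -1.69 ± 0.20, adjusted p = 0.00145) and the lectin Clec4a2 (log2 fold change -1.93 ± 0.47, adjusted p = 0.0211; not called without Mettl3KO replicate 2 or 3). Clec4a2 was at 28.1, 11.5 and 24.2 CPM in Mettl3KO libraries, against 47.4, 54.4 and 143 CPM in WT libraries, and was highest in WT replicate 3.

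**Figure D5:**
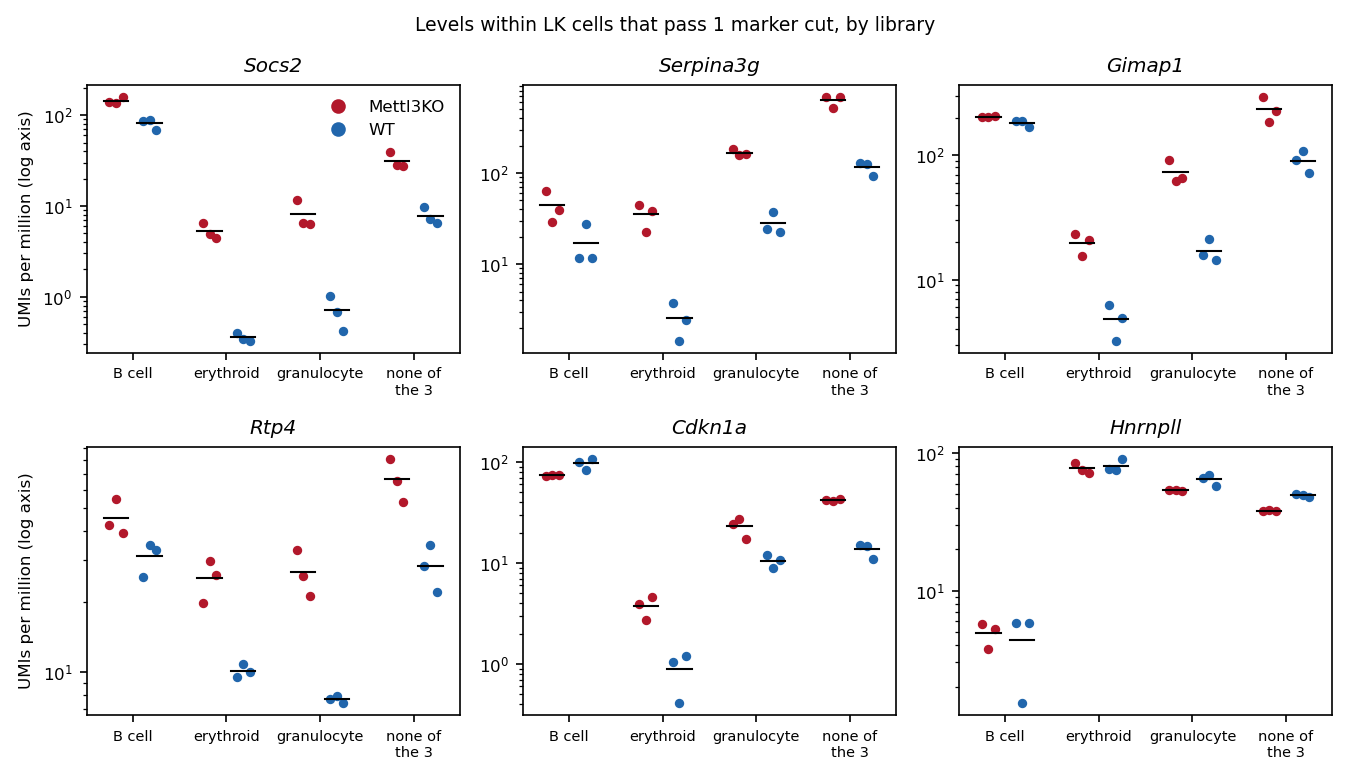
CPM within the set (log axis) of 6 genes in LK cells that pass only the B cell, only the erythroid or only the granulocyte marker cut, or none of the 3, by library; Mettl3KO is left of WT and bars are means of 3 libraries. Socs2, Serpina3g, Gimap1 and Rtp4 were higher in every Mettl3KO library in all 4 sets, whereas Cdkn1a was lower in B cell marker cells and higher in the other 3. In B cell marker cells the difference in Gimap1 was small, at 203, 202 and 207 CPM in Mettl3KO libraries, against 188, 190 and 168 in WT libraries. Gimap6, not drawn here, overlapped in those cells.

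Because the make-up of the gate differed, levels were also read within cells that passed only 1 of the B cell, erythroid and granulocyte cuts, or none. The sets held 110 to 2694 cells per library, and cells past more than 1 cut were left out. Only picked genes were read in the sets, and the share of all genes without overlap within a set was not computed. In the whole sums that share was 41.5% of the genes tested. In granulocyte marker cells, Socs2 stood at 11.8, 6.52 and 6.36 CPM in Mettl3KO libraries, against 1.03, 0.678 and 0.421 in WT libraries. In cells past none of the 3 cuts it stood at 39.2, 28.3 and 27.5 in Mettl3KO libraries, against 9.71, 7.16 and 6.501 in WT libraries. In B cell marker cells, where Socs2 was highest, it stood at 139.7, 135 and 160.1 in Mettl3KO libraries, against 86.1, 88.3 and 69.3 in WT libraries. The groups did not overlap in any of the 4 sets. For comparison, the pre-B gene Vpreb3 in granulocyte marker cells stood at 11.999, 20.5 and 15.1 in Mettl3KO libraries, against 5.596, 5.06 and 6.14 in WT libraries.

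Serpina3g differed within granulocyte marker cells, at 182, 159 and 162 CPM in Mettl3KO libraries, against 24.6, 37.5 and 22.3 in WT libraries. It was highest in cells past none of the cuts, at 689.9, 525 and 679 in Mettl3KO libraries, against 130.2, 126 and 91.9 in WT libraries. Esam, Rtp4, Igtp, Gbp2 and Tap1 were higher in every Mettl3KO library in all 4 sets, and Selp in the 3 sets other than B cell marker cells. Irgm1 overlapped in erythroid marker cells. H2-K1 was higher in granulocyte marker cells, at 711, 616 and 622 in Mettl3KO libraries, against 352, 448 and 370.1 in WT libraries, and overlapped in B cell marker cells, at 779.8, 782 and 844 in Mettl3KO libraries and 627, 837 and 751 in WT libraries. Pim1 likewise overlapped in B cell marker cells, and Pim2 was lower there, on 42 to 60 UMIs per library in Mettl3KO and 8 to 24 in WT. Cdkn1a stood at 73.3, 74.5 and 74.4 in B cell marker cells of Mettl3KO libraries, against 100.02, 83.7 and 107 in WT libraries, lower in all 3. In cells past none of the cuts it stood at 41.7, 40.6 and 42.7 in Mettl3KO libraries, against 15.1, 14.7 and 11.02 in WT libraries. Whether the genotype difference itself differed between sets was not tested.

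Other genes also differed by set. Hnrnpll was lower in granulocyte marker cells, at 53.7, 53.9 and 53.1 CPM in Mettl3KO libraries, against 66.04, 69.3 and 57.4 in WT libraries, and in cells past none of the cuts. It overlapped in B cell marker cells and in erythroid marker cells, where it was highest, at 84.9, 75.6 and 72.1 in Mettl3KO libraries and 77.01, 75.7 and 90.7 in WT libraries. Ythdf2 was higher in granulocyte marker cells, at 98.2, 85.4 and 83.2 in Mettl3KO libraries, against 55.6, 55.9 and 51.8 in WT libraries, and overlapped in B cell and erythroid marker cells. Mettl3 stood at 9.59, 8.74 and 9.85 in granulocyte marker cells of Mettl3KO libraries, against 14.3, 16.1 and 12.2 in WT libraries, and overlapped in B cell marker cells, at 13.8, 17.3 and 14.4 in Mettl3KO libraries and 19.8, 22.8 and 14.4 in WT libraries, the WT values resting on 34, 15 and 10 UMIs. It was lower without overlap in erythroid marker cells and in cells past none of the cuts as well. When the whole sums were refitted without B cell marker cells, 2043 of the 2934 genes were still called, and without B cell or erythroid marker cells 1573. Both refits were chosen after the data were seen.

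The bulk libraries give the same genes in sorted HSC, MPP1, MPP2 and MPP4, stem and multipotent cells that are rare within LK, with 3 libraries per genotype. Their calls covered 6.15%, 8.63%, 2.47% and 3.13% of 15545 genes. The difference between LK and the sorted cells was not tested, and whether the libraries share mice is not stated. Mettl3 had log2 fold changes of -1.35, -1.49, -1.08 and -0.77 in these 4 populations, each called. Serpina3g had 1.77, 1.36, 1.95 and 0.35, called in all but MPP4. Selp had 2.41, 3.19, 2.44 and 1.18, called in all 4, as was Bcl2l1 at 0.84, 0.67, 0.98 and 1.29. Socs2 had 1.15, 1.68, 1.8 and 2.09, called in all but HSC, while Cish at -0.23, -0.46, 0.32 and 0.04 and Socs3 at 0.43, 1.23, 0.36 and -0.26 were called in none. Among interferon and MHC genes, Igtp had 1.25, 1.18, 1.18 and 0.46, called in all but MPP4, whereas Irf1 at 0.02, 0.25, -0.09 and 0.02, Gbp2 at -0.39, -0.13, -0.19 and 0.66 and H2-K1 at 0.31, 0.14, 0.26 and -0.12 were called in none. Esam had 0.64, 0.26, 1.46 and -1.03, called higher in MPP2 and lower in MPP4, and Ly6a, at 0.60, 0.04, 0.14 and -0.45, was called in none. Klk8 had -4.4, -4.06, -2.56 and -2.26, called lower in all 4, and Car1 had -4.52, -2.26, -2.03 and -2.44, called in all but MPP2.

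Transcript features were compared as a description. Of the longest protein-coding transcript of each gene in the GENCODE vM21 annotation, found for at least 89.9% of genes in each class, the median GC content was 53.1% for genes called higher, 49.2% for genes called lower and 49.7% for the rest. The motif GGACT, a common context of m6A, occurred 1.15 times per kilobase in the median gene called higher, 1.02 in those called lower and 1.03 in the rest. The median length was 2821, 3109 and 3073.5 bases. Called genes were spread over the genome, at 19.4% to 25.4% of the genes tested per chromosome. Near Mettl3 on chromosome 14, where alleles linked to the floxed locus would sit, 8.33% of 12 genes within 1 megabase and 21.9% of 105 genes within 5 megabases were called, against 22.4% of all.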

How the data were processed

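UMI counts per gene and cell of the 10x libraries were deposited by the authors, who used Cell Ranger 2.2 per the submitters' processing notes, which also name TopHat, Bowtie, mm10 and GRCh37 with no role given. The bulk table is named for FPKM, but its deposited values are whole-number counts and were treated as read counts; some genes hold only even values, for a reason not given in the sources used here. Cells with over 10% mitochondrial UMIs were left out, counts were summed per library, and edgeR 4.0.16 (quasi-likelihood test, TMM scaling, filterByExpr) in R 4.3.3 was fitted to the 3 Mettl3KO and 3 WT libraries. P-values were Benjamini-Hochberg adjusted, with a threshold of 0.05. The bulk fit used 1 mean per population and genotype, with totals of 28896498 to 55276836 counts per library. DESeq2 1.42.0 and limma 3.58.1 were alternatives, and the fit was tested on simulated data. Marker cells were those with at least 10 marker UMIs per 10000 UMIs. No doublet caller was run.

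Members and lists were chosen with earlier results of these data known. Genes were named as follows: Mettl3; the 12 largest rises and 12 largest falls among called genes with at least 10 CPM in the higher genotype and no overlap; the 6 smallest p each way; up to 4 called members each way per list by p; and, for a list with none called, its 2 most abundant members. Genes that did not pass, the gene families and Pim1, Pim3, Camp and S100a8 among others were added after their values were seen. Samples with the same replicate number do not come from a stated shared animal, batch or day. Some genes that the naming rule selects are not reported here.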

Additional observations from a re-analysis of the deposited data

How the results depend on the processing

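The LK count of 2934 called genes was 2999 without the filter on low counts, 2941 with DESeq2 size factors, 2866 with upper-quartile scaling, 2953 with no mitochondrial limit, 2677 with a 5% limit, 2271 after thinning to 3000 UMIs per cell, 2925 with DESeq2 and 3370 with limma voom, and 1887 to 2614 when 1 library was left out. With a replicate block it was 2055; same-numbered samples had correlations of -0.07, -0.18 and -0.30 in their deviations, so the numbers were not taken as pairs, and the block gave 945, 1256, 378 and 458 calls in bulk HSC, MPP1, MPP2 and MPP4. In these 4 populations DESeq2 called 1726, 2330, 978 and 1051 genes, against 956, 1342, 384 and 487 in edgeR. Leaving out 1 library gave 454 to 1275 calls in HSC, 680 to 1762 in MPP1, 109 to 220 in MPP2 and 137 to 350 in MPP4. These counts do not all hold the same genes. Of the 2934 LK calls, 1920 (65.4%) were also called in the same direction after thinning, and 1811 to 2318 when 1 library was left out. In 2 refits added after the data were seen, the LK count was 2460 without B cell marker cells and 2546 without B cell and erythroid marker cells. Without both sets, log2 fold changes turned to 0.0609 for Bcl2l11, -0.15 for Cnrip1, 0.43 for Epor, -0.20 for Il7r, 0.45 for Plvap, 0.22 for Prss50, 0.0409 for Slc25a21 and 0.15 for Uros; without B cell marker cells, Ccnd3 turned to -0.20 and Smarca4 to -0.0332. The cause of these changes was not tested. Of 156 called genes named by the rule, 110 kept their call under every alternative other than these 2 refits and 83 under all of them.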
